A study of Arabidopsis thaliana with 4 samples.

Results

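The ribosomal protein genes of Arabidopsis thaliana were followed here in an atlas of open chromatin of root tip nuclei. They were taken as the nuclear protein-coding genes of TAIR10 whose annotated product contains the words ribosomal protein and none of kinase, methyltransferase or acetyltransferase, which gave 343 of 27444 genes. By this wording the set also holds genes named as elongation factors, such as eEF-1Bb1 (AT1G30230) and AT3G12915. A gene was measured through the regions of open chromatin that overlapped the stretch from 1 kb upstream to 200 bases downstream of its start and that held a peak in all 4 libraries (called shared regions). In this way 272 of the 343 genes had at least 1 shared region, and together they had 287 of the 18340 shared regions of the genome.

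Nuclei came from the root tip (5 mm) of Col-0, the reference accession, grown either on control medium or on medium with sorbitol as an osmotic stress, with 2 libraries in each group, named control replicate 1 and 2 and stress replicate 1 and 2. All plants were of the same accession and carried no transgene that the labels name. Open chromatin (ATAC) and RNA were read from the same nucleus in droplets, with 15000 nuclei loaded per library. A transposase cuts accessible DNA, so the number of cut sites in a region is a measure of its openness. The counts analysed were those of 6069, 12068, 15302 and 14552 called nuclei in control replicates 1 and 2 and stress replicates 1 and 2, with a median of 4851, 3898.5, 3423.5 and 3494 cut sites per nucleus. In stress replicate 1 this is more than were loaded, so some of the barcodes called nuclei cannot be single intact nuclei. The RNA counts are not paired with gene names in the files analysed, so transcripts of these genes were not analysed here.

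Ribosomes translate messenger RNA into protein and consist of a small and a large subunit, each built from ribosomal RNA and many proteins. In the cytosol these are the 40S and 60S subunits, and the acidic P proteins form a stalk on the large subunit that binds the GTPase translation factors. Plant cells hold further ribosomes of bacterial type in plastids and mitochondria, most of whose proteins are encoded in the nucleus and imported. A cytosolic ribosomal protein of Arabidopsis is usually encoded by a small family of paralogs, and promoters of these genes are known for telo boxes and for site II elements, short motifs that are bound by TRB and TCP proteins respectively. Growing root meristems make many ribosomes, and the TOR kinase, which acts on the S6 kinases, links their synthesis to nutrients and growth.

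From the wording of the annotation, 191 of the 343 genes belonged to the cytosolic ribosome (100 of the large subunit, 80 of the small subunit and 11 of the stalk), 43 to the plastid ribosome and 19 to the mitochondrial ribosome. For 39 genes the annotation named a ribosome without its compartment. For 51 it gave a ribosomal protein name or domain without stating a function in the ribosome. These classes rest on text alone, and single genes may be misplaced, such as AT1G74970 and AT3G49080, which were counted as cytosolic.

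The promoters that the results turn on are shown as the 200 bases before the annotated start on the gene's own strand, 5′ to 3′, read from the RefSeq genome TAIR10.1, whose nuclear sequence is that of TAIR10. Capitals mark AAACCCT, the core of the telo box, and the site II forms TGGGCC and TGGGCT, on either strand (read there as their reverse complements). The following promoters belong to a pair of genes for S20e of the small subunit, which differ in these motifs.
AT3G45030, chr3:16472410-16472609, minus strand: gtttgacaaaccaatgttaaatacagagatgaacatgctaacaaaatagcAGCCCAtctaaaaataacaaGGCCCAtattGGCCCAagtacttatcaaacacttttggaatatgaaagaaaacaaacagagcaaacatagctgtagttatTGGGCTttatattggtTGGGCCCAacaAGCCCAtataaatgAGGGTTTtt
AT5G62300, chr5:25022565-25022764, minus strand: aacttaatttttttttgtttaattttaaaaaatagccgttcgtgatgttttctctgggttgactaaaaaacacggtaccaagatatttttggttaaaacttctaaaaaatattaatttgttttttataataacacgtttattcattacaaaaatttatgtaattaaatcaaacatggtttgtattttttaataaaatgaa
The S20e promoter of AT3G45030 held 7 site II matches and 1 telo box core, and that of AT5G62300 held none of either.

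The promoters of paralogs that were far apart in openness are given here for S23, a protein at the decoding centre of the small subunit, and for L23, a protein of the large subunit at the interface with the small one.
AT5G02960, chr5:694516-694715, minus strand: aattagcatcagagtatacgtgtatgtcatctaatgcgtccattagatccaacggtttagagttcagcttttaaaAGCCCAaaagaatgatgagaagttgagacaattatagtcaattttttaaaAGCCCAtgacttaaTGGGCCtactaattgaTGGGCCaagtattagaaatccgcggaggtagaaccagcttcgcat
AT3G09680, chr3:2970372-2970571, minus strand: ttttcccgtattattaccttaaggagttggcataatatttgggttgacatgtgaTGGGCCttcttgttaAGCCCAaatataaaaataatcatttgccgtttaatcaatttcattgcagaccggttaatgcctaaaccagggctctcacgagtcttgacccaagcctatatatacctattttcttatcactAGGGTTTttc
AT1G04480, chr1:1215725-1215924, plus strand: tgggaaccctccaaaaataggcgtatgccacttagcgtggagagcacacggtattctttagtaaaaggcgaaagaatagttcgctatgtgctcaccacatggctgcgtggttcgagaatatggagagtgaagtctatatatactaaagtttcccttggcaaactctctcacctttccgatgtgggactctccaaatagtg
AT2G33370, chr2:14144767-14144966, minus strand: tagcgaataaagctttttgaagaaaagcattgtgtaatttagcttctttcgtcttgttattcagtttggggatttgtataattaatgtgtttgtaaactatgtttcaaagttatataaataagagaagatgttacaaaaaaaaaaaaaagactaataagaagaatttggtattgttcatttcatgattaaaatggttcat
Both S23 promoters held site II (4 matches in AT5G02960 and 2 in AT3G09680) and that of AT3G09680 also held the telo box core. Neither L23 promoter held any of the motifs in these 200 bases.

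The last promoters belong to AT5G15520 (S19e, needed for maturation of the small subunit in yeast and human cells), whose region passed the test of stress against control, and to AT3G56020, which encodes L41, the shortest ribosomal protein.
AT5G15520, chr5:5038755-5038954, minus strand: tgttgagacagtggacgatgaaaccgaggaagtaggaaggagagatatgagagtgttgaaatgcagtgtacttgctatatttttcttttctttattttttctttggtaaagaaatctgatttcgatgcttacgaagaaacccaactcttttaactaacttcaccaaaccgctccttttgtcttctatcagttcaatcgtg
AT3G56020, chr3:20791164-20791363, minus strand: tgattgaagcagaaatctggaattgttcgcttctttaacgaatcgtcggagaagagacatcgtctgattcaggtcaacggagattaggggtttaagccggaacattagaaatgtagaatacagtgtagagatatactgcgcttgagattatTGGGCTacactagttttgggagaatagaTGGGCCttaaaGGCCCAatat
No motif was found in the S19e promoter, and 3 site II matches lay within 49 bases of the start of AT3G56020.

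Ribosomal protein genes had an open start more often than other genes. A shared region was found for 79.3% of them and for 58.4% of all protein-coding genes. No peak in any library was counted for 36 of them (10.5%) and for 26.3% of all genes. Of the 36, 3 lie in a stretch of chromosome 2 that was left out here, where peaks were not counted. Genes of that stretch enter the 26.3% in the same way. The share with a shared region was 81.7% of the cytosolic genes, 81.4% of the plastid genes and 89.5% of the mitochondrial genes. It was 69.2% of those without a named compartment and 72.5% of those without a stated ribosome function. Of the remaining genes, 22 had a peak in 3 libraries, 10 in 2 and 3 in 1.

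Some of the genes without a peak have close copies elsewhere in the genome. Among the 36, the start window of 8 had a match of at least 95% identity over at least 50% of its length elsewhere in the genome. These were AT1G33120 and PGY2 (AT1G33140), which encode L9 of the large subunit and whose windows were 99.42% identical. They also included the S5 family genes AT1G58684, AT1G58983 and AT1G59359, whose windows were identical over 1201 bases. The others were AT2G07675, AT2G07696 and AT2G07734, whose windows match an organelle genome. The latter genes lie in the stretch of chromosome 2 that was left out here, so whether they had a peak was not examined. Such a copy was found for 3 of the 272 genes with a shared region and for 1 of the 35 genes with a peak in 1 to 3 libraries. Read mapping could not be examined in these files, so the part of the copies in the absent peaks was not tested. The other 28 had no such copy, among them the L34e gene AT1G26880, the S19 family gene AT1G33850, the L7Ae family genes AT1G36240 and AT1G77940, and RPSAb (AT3G04770).

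The regions sat on the start itself. Of the 272 genes, 97.8% had a region that covered the start, against 81.9% of all 16031 protein-coding genes with a shared region. From the start, the regions reached a median of 496.5 bases upstream and 411.5 bases downstream, which was close to the 504 and 398 bases of all genes. Many lay between neighbouring genes: 132 of the 287 regions (46.0%) also overlapped the start window of another gene, against 25.5% of the 13989 gene-start regions, and 87 (30.3%) covered the starts of at least 2 genes, against 11.4%. For those the openness cannot be assigned to either gene.

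In level the regions were ordinary. Openness is given as CPM, counts scaled to the normalized library size, and, where genes are compared, as CPM per kb of region. The median of the 287 regions was 58.5 CPM per kb and that of all gene-start regions 57.5, and the members ranged from 25.5 to 153 CPM per kb. When the gene-start regions were ordered by level and cut into 4 equal classes, 61 members fell in the lowest class (21.3%), 71 in the next (24.7%), 80 in the one above (27.9%) and 75 in the highest (26.1%). A cut site was seen in a median of 11.6% of nuclei for a member region and of 11.2% for a gene-start region, averaged over the libraries, a share that depends on depth per nucleus and was 15.6% for members in control replicate 1 and 9.53% in stress replicate 1. Each value rests on many counts, with a median of 2043 to 2857 per member region and library and a minimum of 880. Cut sites come in pairs, so these counts are not all independent. Counting error was not separated from the spread between libraries.

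By class, the median level over the 4 libraries was 59.7 CPM per kb for 156 cytosolic genes and 60.05 for 35 plastid genes. It was 49.9 for 17 mitochondrial genes, 50.5 for 27 genes without a named compartment and 59.3 for 37 genes without a stated ribosome function. The large and small subunits had medians of 61.2 and 58.1 CPM per kb. The ranges of the classes overlapped widely, and no test of these differences was made.

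**Figure D1:**
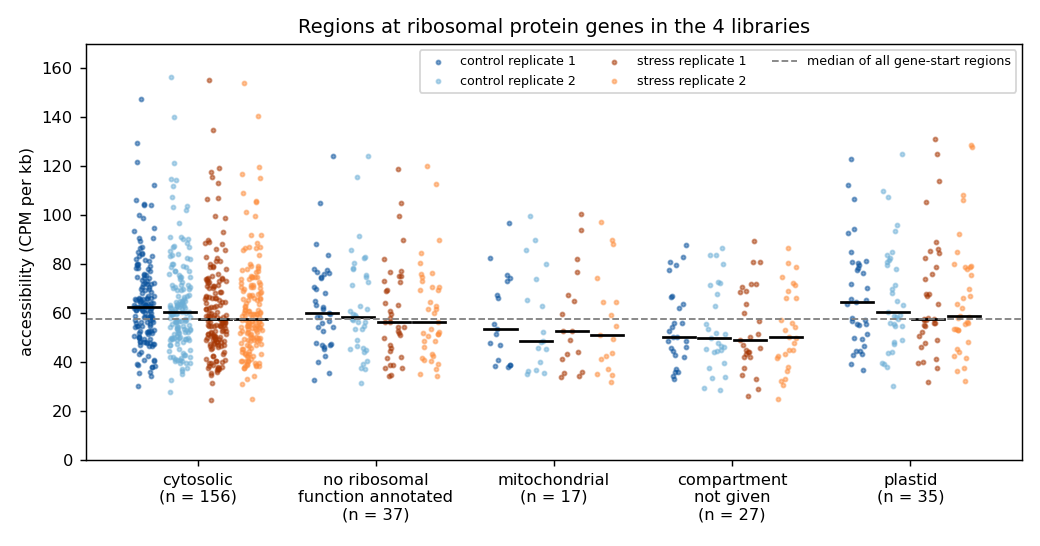
Openness (CPM per kb, vertical axis) of the region of each of the 272 genes by class, with a point per gene and library, a black line at the median of each library and a dashed line at the median of all gene-start regions (57.5). The classes overlap, and the cytosolic median is highest (62.5) in control replicate 1 and lowest (57.6) in stress replicate 1.

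With each gene taken by the region nearest its start, the most open regions belonged to different kinds of ribosomal protein. That of AT5G02960 (S23, chr5:694274-695208) had 148, 157, 155 and 154 CPM per kb in control replicates 1 and 2 and stress replicates 1 and 2, and it also covered the start of AT5G02970, which encodes an alpha/beta hydrolase. That of RPS15 (AT1G04270, small subunit, chr1:1143389-1143963) had 130, 140, 135 and 140 CPM per kb and lay 259 bases upstream of the start. These levels hardly moved between libraries, and the groups overlapped for both genes. The region of AT5G15260, a plastid gene by its annotation with an L34e domain, had a mean of 125 CPM per kb, and that of AT5G02740, with an S24e domain, had 122. A second region of AT4G23620, upstream of its start and described with the changes under stress, had 138 CPM per kb.

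The least open regions, taken likewise, included a stalk gene. AT5G40040, which encodes an acidic P protein, had 30.2, 27.8, 24.5 and 24.9 CPM per kb in control replicates 1 and 2 and stress replicates 1 and 2. AT1G64880, of the S5 family of small subunit proteins, had a mean of 28.2, AT1G24240, of the L19 family, 30.9 and AT3G49080, of the S5 domain superfamily, 33.3 CPM per kb. AT5G40040 and AT5G02960 were far apart beyond the range over libraries of either.

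Stress against control was tested by edgeR's quasi-likelihood test over all 18340 shared regions, on counts summed over the nuclei of a library, and p-values were adjusted by the Benjamini-Hochberg method and called under 0.05. Since all nuclei of a library are summed, a lower value can come from fewer nuclei of an open type or from less openness per nucleus, which cannot be told apart. Of the 287 member regions, 1 fell under stress and 0 rose, where over all regions 1.15% passed in either direction, 0.218% below control and 0.927% above it. The single fall is near that background. At an unadjusted p under 0.05, 55 member regions were lower and 9 higher, against 10.4% lower and 13.1% higher of all regions, and DESeq2 called 14 lower and 7 higher, against 4.45% lower and 7.93% higher of all regions.

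As a set, the regions leaned to lower values under stress. Their median log2 change was -0.061, against -0.0027 for all shared regions and -0.00033 for those at gene starts, and 202 of 287 (70.4%) were below 0, against 50.8% of all shared regions. Both stress libraries lay below both control libraries in 143 member regions (49.8%), where 29.1% of all regions did so, and above them in 36 (12.5%), where 29.4% did. The summed level of the 287 regions was 16425 and 16239 CPM in control replicates 1 and 2 and 15878 and 15853 in stress replicates 1 and 2. The stress libraries were 2.86% lower by their means (16332 ± 131 against 15866 ± 17.7 CPM, SD, n = 2), and the values of the groups did not overlap. No p is given for this sum over chosen genes, and 2 against 2 libraries could not give a p under 0.333 in an exact two-sided permutation test.

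Control replicate 1 stood apart from the other libraries. It had the smallest number of nuclei and the greatest depth per nucleus, and its levels correlated at 0.949 to 0.969 (Pearson, across the 287 regions) with those of the other libraries, against 0.979 to 0.990 among these. It was the highest library in 155 of the 287 member regions (54.0%), against 35.7% of all shared regions. The median log2 ratio of the stress mean was -0.075 over control replicate 1 alone and -0.040 over control replicate 2 alone, with 70.7% and 71.1% of member regions below 0. Control replicate 2 itself was lower than control replicate 1 by a median of 0.036 on the log2 scale, nearly as far as it was from the stress libraries, and stress replicate 2 differed from stress replicate 1 by -0.0018. The part of this library in the shift was not tested.

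The shift was unequal among the classes. The median log2 change was -0.077 for cytosolic genes, of which 123 of 156 (78.8%) were below 0. It was -0.072 for genes without a stated ribosome function, of which 27 of 37 were below 0. It was -0.042 for mitochondrial genes (11 of 17 below 0), -0.032 for genes without a named compartment (16 of 27) and -0.014 for plastid genes (20 of 35). Within the cytosolic class the large subunit (-0.077), the small subunit (-0.077) and the stalk (-0.069) had close medians, with 75.9% of 83, 84.6% of 65 and 62.5% of 8 regions below 0. The summed level of the stalk regions was 524 and 515 CPM in the control and 516 and 514 in the stress libraries. The differences between classes were not tested. Cytosolic regions that covered 1 gene start had a median of -0.093 with 87.1% of 101 below 0, and those that covered at least 2 starts had -0.026 with 64.2% of 53 below 0.

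**Figure D2:**
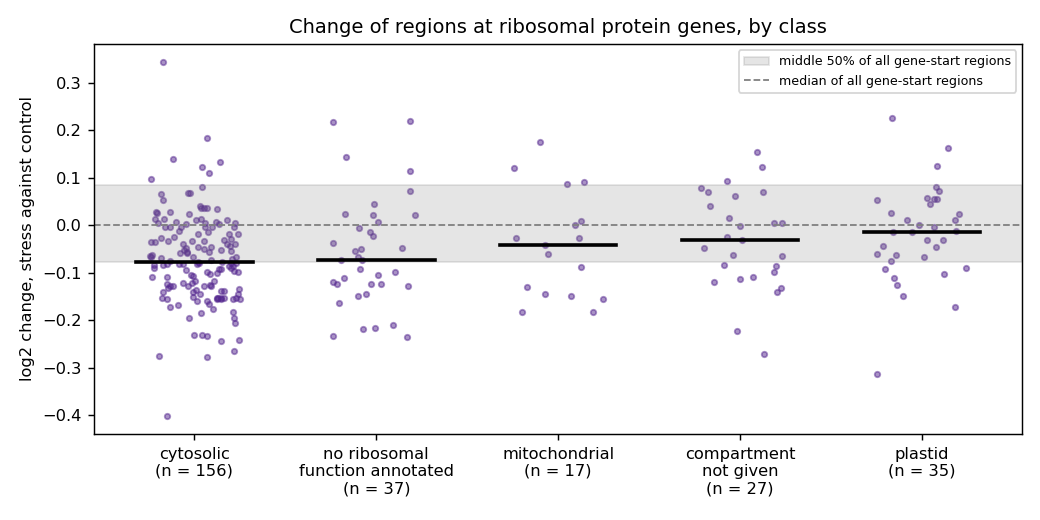
Log2 change of stress against control (vertical axis) for the region of each of the 272 genes by class, with a point per gene, a black line at the class median, a dashed line at the median of all gene-start regions and a grey band over their middle 50%. Most of the 156 cytosolic genes lie below 0 (median -0.077) and the plastid genes lie about evenly around it (median -0.014).

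The region that passed the test belonged to AT5G15520 (S19e, chr5:5038001-5038955). It had 46.5 and 47.3 CPM in control replicates 1 and 2 and 34.3 and 36.7 in stress replicates 1 and 2. Both stress libraries were thus below both controls, with a log2 change of -0.40 ± 0.061 (SE) and an adjusted p of 0.043 by edgeR. The region also covered the start of BCCP2 (AT5G15530), a subunit of the acetyl-CoA carboxylase of fatty acid synthesis, so it cannot be said at which gene the change lay. The call was not kept when stress replicate 1 (adjusted p = 0.239) or stress replicate 2 (0.116) was left out, nor with scaling to library totals (0.052), and the promoter is printed above. Its paralog AT3G02080 had a log2 change of 0.0031.

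The next largest differences below control did not pass the threshold of edgeR and are given as values, although DESeq2 called RPL21C (AT1G35680), AT5G62300 and AT1G29965 (adjusted p = 0.0017, 0.00050 and 0.0063) and edgeR called the former 2 with peak width as an offset (0.038 and 0.044). RPL21C (AT1G35680, plastid large subunit) had 41.7, 43.3, 35.7 and 32.7 CPM in control replicates 1 and 2 and stress replicates 1 and 2, a log2 change of -0.31 ± 0.069 (edgeR adjusted p = 0.074). The S20e gene AT5G62300, whose promoter held none of the motifs, had 55.8, 53.7, 45.9 and 44.4 CPM, a log2 change of -0.28 ± 0.051 (adjusted p = 0.055). In both genes the groups were apart by more than the libraries of a group differed.

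The L18a gene AT1G29965 had 52.7, 47.0, 42.0 and 40.3 CPM, a log2 change of -0.28 ± 0.069 (adjusted p = 0.089 by edgeR). AT1G64880 had 31.5, 27.3, 25.1 and 23.6 CPM, a log2 change of -0.27 ± 0.10 (adjusted p = 0.18). Without control replicate 1 the log2 change of AT1G64880 was -0.17. For this gene the control libraries differed from each other by more than control replicate 2 did from stress replicate 1. The S20e paralogs AT3G45030 and AT3G47370 had log2 changes of -0.14 and -0.034.

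Among regions whose groups did not overlap, the largest values above control also stayed under the threshold of edgeR, and 3 of the 5 regions covered a neighbour's start. A region near AT4G26060, with an L18ae domain, had 61.2, 69.3, 75.2 and 80.0 CPM (log2 change 0.25 ± 0.070, edgeR adjusted p = 0.11), and it covered the start of MEK1 (AT4G26070), a MAP kinase kinase, but not that of AT4G26060. A region 548 bases upstream of AT4G23620, with an L25 domain, had 91.5, 106.8, 118.1 and 115.2 CPM (0.23 ± 0.088, adjusted p = 0.18). In both, control replicate 1 was the lowest library, and without it the log2 changes were 0.16 and 0.13. The peak of AT4G23620 was counted over 642 and 734 bases in control and over 784 and 759 under stress, and its log2 change was 0.070 in the fit that takes peak width as an offset. DESeq2 called both regions (adjusted p = 0.012 and 0.044).

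The region of the plastid L19 gene AT5G47190 had 107.9, 105.4, 125.8 and 123.5 CPM (log2 change 0.23 ± 0.071, edgeR adjusted p = 0.13) and also covered the start of RAB1A (AT5G47200), a GTPase of vesicle transport. AT1G17080, with an L18ae domain, had 51.6, 53.7, 61.2 and 61.3 CPM (0.22 ± 0.048, adjusted p = 0.076). The region near the plastid S10 family gene AT3G13120 had 43.4, 38.99, 46.9 and 47.2 CPM (0.19 ± 0.066, adjusted p = 0.15) and covered the start of AT3G13130 only. The groups were apart in all of these, without a call. Peaks of AT5G47190 were counted over 807 and 773 bases in control and over 916 and 923 under stress. When peak width entered the fit as an offset, its log2 change was 0.0060 and that of AT1G17080 0.13. That of AT3G13120 was 0.12 without control replicate 2. DESeq2 called AT5G47190 and AT1G17080 (adjusted p = 0.0062 and 0.0051) and not AT3G13120.

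RPL23AA (AT2G39460, large subunit) varied most among the members, with 70.9 CPM in control replicate 1 and 129.9, 127.6 and 127.8 in control replicate 2 and stress replicates 1 and 2. Its log2 change of 0.34 ± 0.24 (edgeR adjusted p = 0.41) was the largest above 0 of the 287 regions, with groups that overlapped. Its peak was counted over 522 bases in control replicate 1 and over 910 to 965 bases in the others, since each library was counted in its own peaks. The highest and lowest library of a member region differed by a median of 0.15 on the log2 scale, against 0.17 for all shared regions.

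Paralogs of a family often differed in openness. By protein similarity the 191 cytosolic genes formed 83 families, of which 19 held 1 gene and the largest held 6. In 54 families at least 2 genes were measured. Between the most and the least open gene of a family the median log2 ratio of CPM per kb was 0.43, it was over 1 in 5 families, and in 50 of the 54 the order of these genes was the same in all 4 libraries. The order was fixed by the mean over the same libraries, so this is a description with no test.

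The widest difference lay between the S23 genes, whose proteins were 95.8% identical. AT5G02960 had 148 to 157 CPM per kb (given above) and AT3G09680 had 44.8, 41.5, 37.6 and 39.6 in control replicates 1 and 2 and stress replicates 1 and 2. The log2 ratio was 1.91, from 1.72 to 2.05 over libraries. The L23 genes AT1G04480 and AT2G33370 encode identical proteins (100%), and their regions had 99.6 and 39.6 CPM per kb, a log2 ratio of 1.33 (1.21 to 1.39).

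Among the S19e genes AT3G02080 had 104, 107, 107 and 105 CPM per kb and AT5G15520 had 48.6, 49.5, 35.9 and 38.4. The ratio was wider in the stress libraries, 1.57 and 1.46 on the log2 scale against 1.10 and 1.11 in the controls, through the lower values of AT5G15520 named above. RPL34 (AT1G69620) and AT3G28900 for L34e differed by 1.17 (1.05 to 1.24), and RPS15AD (AT3G46040) and AT5G59850 for S15a by 1.09 (1.02 to 1.16). The regions of AT3G02080, RPS15AD and AT5G59850 covered a neighbour's start as well.

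Other paralogs were nearly equal. The L13e genes AT3G48960 and AT5G23900 had mean levels of 45.6 and 45.5 CPM per kb and changed order between libraries (log2 ratio -0.15 to 0.084), though the region of AT3G48960 lay 368 bases from its start. PFL (AT1G22780), which encodes S18 and is known for the pointed first leaves of its mutant, had 53.9 and its paralog AT1G34030 had 52.4 CPM per kb, with identical proteins (100%). The stalk genes AT3G44590 and AT2G27720 differed by 0.053, the L18 genes AT2G47570 and AT5G27850 by 0.093, and the S13 genes AT3G60770 and RPS13A (AT4G00100) by 0.10 on the log2 scale. The ranges of both genes over libraries overlapped in each of these.

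L41 is a peptide of 25 residues, and 4 of its 5 genes were measured. Their regions had 65.6, 62.2, 64.0 and 62.4 CPM per kb in AT3G56020, and means of 59.9 in AT3G08520, 54.0 in AT1G56045 and 48.9 in AT3G11120, whose region lay 725 bases upstream and covered another gene's start. From the most to the least open the log2 ratio was 0.38, and the ranges of AT3G56020 and AT3G08520 over the libraries overlapped.

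**Figure D3:**
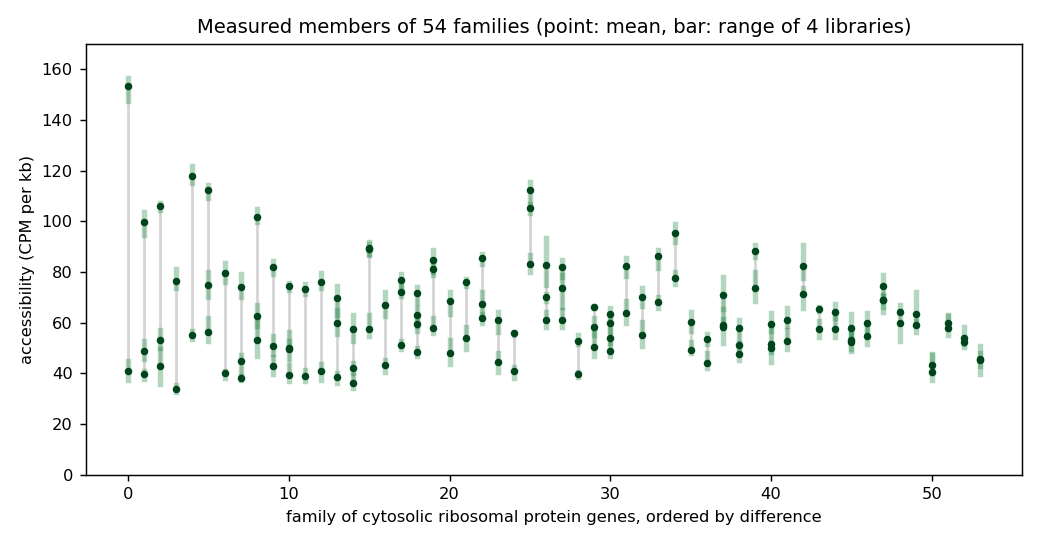
Openness (CPM per kb, vertical axis) of the measured genes of 54 families of cytosolic ribosomal protein genes, ordered by the difference within the family, with a point at the mean of each gene, a green bar over the range of its 4 libraries and a grey line between the family's highest and lowest mean. At the left the S23 family spans 40.9 to 153, and at the right paralogs have nearly the same level.

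The promoters shared motifs far above the level of the genome. In the 300 bases from 250 upstream to 50 downstream of the start, AAACCCT on either strand occurred in 53.4% of the 191 cytosolic promoters and in 10.0% of all 27443 promoters read. TGGGCC or TGGGCT occurred in 77.5%, against 21.7% of all and 30.7% of the promoters of genes with a shared region, and both kinds together in 46.1%, against 3.19% of all. The reverse complements of both site II forms contain GCCCA, which alone was found in 78.0% of cytosolic and 26.0% of all promoters. TATAAA differed less, at 62.8% against 52.1%.

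Genes of organelle ribosomes held the motifs less often than cytosolic ones. The share with AAACCCT was 20.9% of 43 plastid and 15.8% of 19 mitochondrial promoters, and that with site II was 41.9% and 47.4%. The motifs also had a place. Site II was most frequent from 50 to 26 bases before the start, where 36.1% of cytosolic promoters held a match against 4.51% of all, and AAACCCT in the first 25 transcribed bases, with 18.8% against 1.55%. Median GC content was 34.3% in cytosolic and 32% in all promoters.

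**Figure D4:**
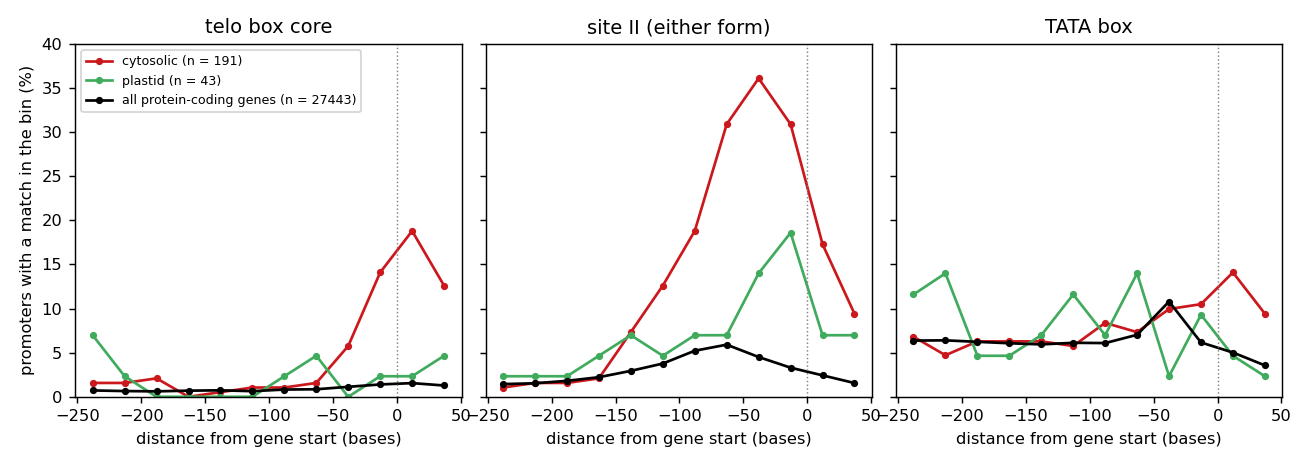
Share of promoters with a match (percent, vertical axis) in bins of 25 bases by distance from the gene start (horizontal axis) for AAACCCT, for TGGGCC or TGGGCT and for TATAAA, in cytosolic ribosomal protein genes (red), plastid ones (green) and all protein-coding genes (black). In the cytosolic genes site II peaks at 36.1% just before the start and AAACCCT at 18.8% just after it.

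Median levels were close with and without a match. The 127 measured cytosolic genes with site II had a median of 59.9 CPM per kb and the 29 without it 59.2. Their median log2 changes under stress were -0.082 and -0.034. The 86 genes with AAACCCT had a median level of 60.1 and a change of -0.061, and the 70 without it had 58.8 and -0.082. Of the 35 cytosolic genes without a shared region, 21 held site II and 16 AAACCCT, against 127 and 86 of the 156 with one. These are descriptions, with no test.

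Nuclei rich in RNA were compared with nuclei poor in RNA of the same library and depth. In each library nuclei were split at the median RNA count within 4 strata of cut sites, and the share of member regions among the counts of all gene-start regions was compared. The log2 ratio of nuclei with much over little RNA was 0.021 in control replicate 1. It lay between 0.012 and 0.023 in the 4 libraries, with a mean of 0.018. This ratio pools the counts of all member regions. Taken region by region, the median was 0.028 for member regions and 0.012 for all gene-start regions, as means over libraries. Without the depth strata the pooled mean was 0.0092, and these medians were 0.016 and 0.0086. With the strata, the pooled mean was 0.024 for the cytosolic genes and -0.0081 for the plastid genes. RNA-rich nuclei thus differed from RNA-poor ones by under 2% in the share of these regions, while their median RNA counts were 8938 and 2646 in control replicate 1.

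Nuclei were also ranked by the share of their counts in marker loci of root cell types or of green tissue. The lists held from 3 regions (endodermis, stele and green tissue) to 8 (trichoblast). The 10% highest in each of 10 depth strata were taken against the rest. Such a class is a range of a score and no cell type. Some nuclei taken had no cut site in the marker loci: for endodermis, 1309 of 1460 had one in stress replicate 2. The log2 ratio of the share of member regions was 0.010 for meristem loci (0.0084 to 0.013 over libraries), 0.0068 for cortex, 0.0035 for green tissue, -0.00058 for root cap, -0.0010 for stele, -0.0075 for endodermis and -0.0096 for trichoblast loci (-0.017 to -0.0062). The meristem value was above 0 in all 4 libraries, also with the top 5% of nuclei (0.013 to 0.023). In the same nuclei the median over all single gene-start regions, which is not pooled, was likewise above 0 in all 4. Its mean was 0.0034 with the top 10%. The trichoblast value was below 0 in all 4, but with the top 5% it was 0.0021 in control replicate 2. For the cytosolic regions alone it was above 0 in both replicates 2 (0.0062 in control and 0.00028 in stress). The median over all single gene-start regions was also below 0 in all 4 for trichoblast loci with the top 10% (mean -0.0020).

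**Figure D5:**
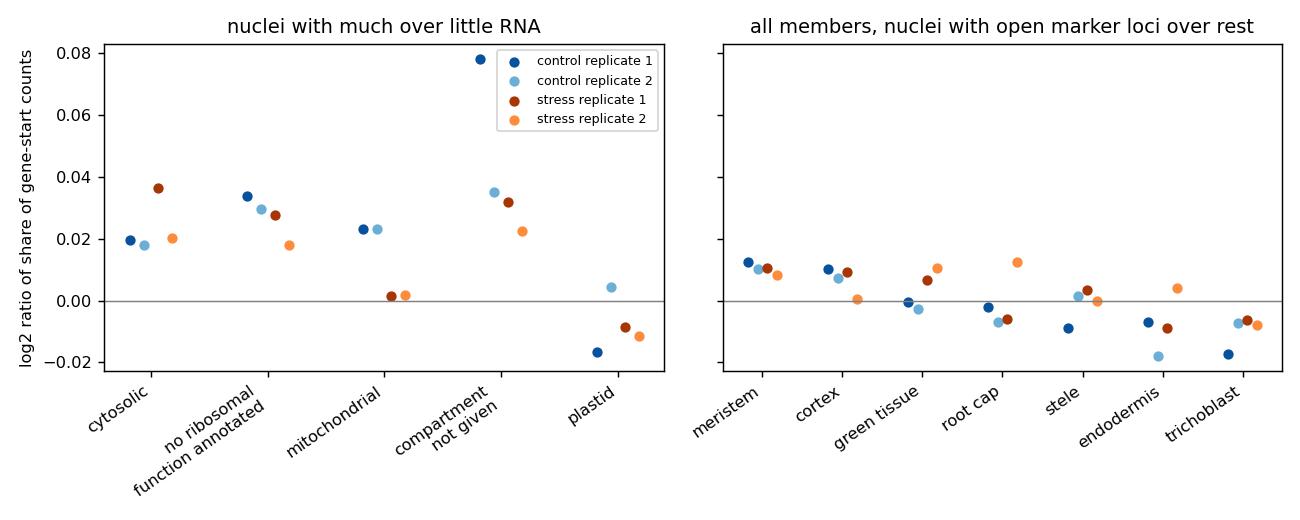
Log2 ratio of the share of ribosomal protein regions among counts of gene-start regions (vertical axis), with a point for each of the 4 libraries. Left, nuclei with much over little RNA by class, and right, nuclei ranked highest by marker loci over the rest by marker list. Nearly all points lie within 0.04 of 0, apart from the 0.078 of control replicate 1 for genes without a named compartment.

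The marker lists also serve to check the tissue. A shared region at the start was found for 7 of 12 trichoblast (root hair cell) genes, 4 of 9 cortex, 2 of 12 endodermis, 3 of 14 stele, 4 of 12 root cap and 6 of 13 meristem genes, and for 3 of 5 genes of photosynthesis, whose 3 regions had a median of 61.0 CPM per kb. Starts of genes of green tissue were thus open as well. Of the 31 marker regions, edgeR called 0, with 3 higher and 2 lower at an unadjusted p under 0.05, and DESeq2 called 1 higher and 1 lower. Over all regions these shares were 13.1% and 10.4% unadjusted and 7.93% and 4.45% by DESeq2. Summed levels of some lists moved by as much as that of the ribosomal protein genes, and those of other lists by less. Those of cortex (197 and 194 CPM in control replicates 1 and 2, 208 and 205 in stress replicates 1 and 2) and stele (182 and 184 against 192 and 197) were higher in both stress libraries, and that of endodermis was lower (121 and 118 against 117 and 116). Green tissue loci were slightly higher (169 and 166 against 169.2 and 173). The groups overlapped for trichoblast (446 and 450 against 440 and 448), root cap (193 and 185 against 183 and 187) and meristem loci (258 and 251.1 against 242 and 251.0). Their part in the lower ribosomal protein values was not tested.

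Other genes, mostly of translation, were read in the same fit. Genes already counted as ribosomal protein genes, eEF-1Bb1 and AT3G12915 among them, were left out of the lists that follow. The 50 regions of 56 initiation factor genes, which bring the ribosome to the start codon, had a median log2 change of -0.018 with 66.0% below 0, and the 41 regions of 38 elongation factor genes had 0.0081 with 46.3% below 0. The latter list was taken by product text and also holds genes outside translation. Among them are AT3G05500 and AT1G67360 (rubber elongation factor proteins), TFIIS (AT2G38560) and AT5G56120 (elongation by RNA polymerase II). For AT2G25800, AT2G31920, AT3G59670, AT1G44770 and AT5G43150, also in the list, a part in translation is not established here. The 46 regions of 61 genes named as aminoacyl-tRNA synthetases, which charge tRNAs, or as related proteins had -0.067 with 60.9% below 0. This median was close to that of the ribosomal protein genes. The list was also taken by product text. It holds proteins with a synthetase-associated domain (AT4G16510 and AT1G44835), as well as AT3G17800 and SAMBA (AT1G32310), whose part in charging tRNAs is not established here. The 14 regions of 14 nucleolar and growth control genes had -0.027. In these lists edgeR called 0 of 150 regions, with 14 higher and 15 lower at an unadjusted p under 0.05, and DESeq2 called 4 higher and 5 lower, where over all regions 13.1% were higher and 10.4% lower unadjusted and DESeq2 called 7.93% and 4.45%.

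Single genes of growth control moved both ways without a call. A region of TOR (AT1G50030) had 48.0, 41.7, 39.4 and 38.4 CPM in control replicates 1 and 2 and stress replicates 1 and 2, a log2 change of -0.20 ± 0.077 (edgeR adjusted p = 0.18), and another region of it -0.051 (0.74). PK1 (AT3G08730), an S6 kinase below TOR, had 54.2, 53.9, 57.5 and 58.8 CPM (0.11 ± 0.047, adjusted p = 0.23). NAP57 (AT3G57150), the nucleolar enzyme that makes pseudouridine in ribosomal RNA, had 74.3, 76.6, 83.0 and 84.4 CPM (0.15 ± 0.051, adjusted p = 0.15).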

How the data were processed

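The authors processed each library with Cell Ranger ARC 2.0.2 on TAIR10, per the submitters' processing notes, which also name Signac 1.7.0 and Seurat 4.3.0. They deposited peaks called in each library alone and whole-number counts (cut sites in peaks, unique RNA molecules in genes). The counts are neither normalized nor scaled and cover all 731204 to 736139 barcodes. Counts exist only under a library's own peaks, so the test was limited to regions that hold peaks in each of the 4 libraries. Peak rows follow the gene rows, and their order was checked by rank correlation between libraries (0.936 to 0.992, falling to 0.223 or less when rows were displaced by 1).

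Called nuclei had ATAC counts between 1000 and 100000 and RNA counts between 1000 and 25000, limits that the study states. The study also filtered on nucleosome signal and TSS enrichment, which cannot be computed without fragment files. The called nuclei are thus not the study's cells and are far more numerous. Most of them were not among the nuclei that the study kept. Of all ATAC counts, 82.5% to 90.7% lay in called nuclei. No doublet caller was run. Between 124 and 342 barcodes were shared by a pair of libraries (2.04% to 2.35% of the smaller). The study describes the replicates as biological.

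Counts were summed per library and tested with edgeR 4.0.16 (quasi-likelihood, TMM, filterByExpr, two-sided) in R 4.3.3. Levels are CPM after TMM. In simulated data with 200 changed regions, 43.3% of those with a log2 change of 0.3 and 97.0% of those with 0.5 were recovered, and 9.6% of calls were false. Families joined proteins, translated from the RefSeq coding sequences, of at least 60% identity over 70% of the longer (BLAST 2.17.0), with the L41 peptides joined by name. Compartment and subunit came from the wording of the annotation, with RPS5A and RPS5B set to cytosolic by hand. Results on 1 gene are not reported here. The region of chromosome 2 from 3244537 to 3510140 was left out.

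Genes were named by rule: regions past the threshold, the largest differences among regions whose groups did not overlap up to 5 in each direction, the 4 highest and 4 lowest levels, the 5 widest and 5 narrowest families, L41, and up to 10 genes without a peak. RPL23AA and the genes printed for their promoters were chosen after their values were seen, as were TOR, PK1 and NAP57. The members and lists were chosen with earlier results of these data known. Alternatives were library totals, no low-count filter, leaving out each library, a replicate block, other sets of nuclei, fragments, peak width as an offset, all merged regions, and DESeq2 1.42.0.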

Additional observations from a re-analysis of the deposited data

How the results depend on the processing

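The median log2 change of the ribosomal protein regions stayed below 0 in every alternative and ranged from -0.040 to -0.075 when a library was left out, the former without control replicate 1. Counts of calls depended on the setting. Main counts were 210 over all shared regions, 1 for ribosomal protein genes and 0 for the other translation genes. They were 59 and 0 for the former sets with library totals, 106 over all regions without the top 5% of nuclei, 425, 3 and 2 for all 3 sets with peak width as an offset, 0 and 0 for the former sets with all merged regions, and 2270, 21 and 9 with DESeq2. Leaving out a library gave 36 to 7947, 0 to 117 and 0 to 53, where the ribosomal protein count was 35 without control replicate 1, 117 without control replicate 2 and 0 without either stress library. A lone control sample is there assumed to vary like the other group. The replicate block gave 865, 7 and 2 calls. The numbers do not pair the libraries by the labels, and the deviations of same-numbered libraries correlated at -0.0095, so the block is given here only. The causes were not tested.

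The summed level changed by -0.055 on the log2 scale when taken as a share of gene-start counts in place of -0.042. Over left-out libraries the median ranged from -0.019 to -0.055 for genes without a named compartment, from -0.018 (without control replicate 1) to -0.069 (without control replicate 2) for mitochondrial and from -0.0095 to -0.024 for plastid genes. The median paralog ratio was 0.46 with CPM not divided by length, and 0.41 to 0.44 without 1 library. The RNA split gave 0.0092 without depth strata in place of 0.018, and with the top 5% of nuclei the cortex value was 0.0010 and the meristem value 0.018. The call of AT5G15520 was lost in 4 alternatives, with adjusted p of 0.239, 0.116, 0.105 (all merged regions) and 0.052. Each member region held at least 880 counts in each library, and how levels depend on depth was not tested. With 2 libraries per group the test found 43.3% of simulated log2 changes of 0.3 and most member changes were smaller than that.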
